A study of Rattus norvegicus with 9 samples.

Results

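The core clock and clock output genes Arntl, Clock, Npas2, Cry1, Per1, Per2, Per3, Dbp, Nr1d1 and Nr1d2 were described in rat kidney. They were chosen by gene symbol, and each of the 10 symbols matched 1 row of the 19367 genes in the expression table. All 10 passed the filter on low values that left 13127 genes for testing (at least 1 FPKM in 3 or more libraries, where FPKM is the fragment number per kilobase of transcript relative to all mapped reads). RNA of whole kidney tissue was sequenced in 9 libraries, 3 per group. The first group was spontaneously hypertensive rats (SHR), an inbred strain with high blood pressure, that received oral dapagliflozin, 10 mg/kg daily over 8 weeks. The second was SHR given water, and the third was Wistar-Kyoto rats (WKY), the normotensive control strain, given water. The rats were 3 months old at the start. The drug blocks the sodium-glucose cotransporter SGLT2 of the proximal tubule. The labels disagree in places (saline or water for the untreated groups, and a strain entry of Wistar-Kyoto throughout), so the sample titles were used to form the groups. The sources used here do not give the hour at which the kidneys were taken or the light schedule. Which animal gave which library is not given either, so p-values measure the spread between libraries, which may be technical.

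The clock is a feedback loop of transcription factors that runs in nearly every cell and repeats about once a day. ARNTL (BMAL1) pairs with CLOCK or its relative NPAS2 and binds E-box sequences at the Per, Cry, Nr1d and Dbp genes. PER and CRY proteins then block this pair, while the REV-ERB proteins encoded by Nr1d1 and Nr1d2 repress Arntl through ROR/REV-ERB elements. DBP acts on D-box sequences of output genes and of Per genes. In a rhythmic tissue Arntl transcript is therefore high when Dbp and Nr1d1 transcripts are low, and the reverse. In the kidney the clock takes part in the daily rhythms of filtration, sodium excretion and blood pressure.

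Read counts are not part of the deposited table, so depth per library is not given and values were compared as FPKM. Libraries of the same group correlated at 0.969 to 0.989 across genes (Pearson's r of log2 values), and libraries of different groups at 0.922 to 0.987. Umod of the thick ascending limb was at 1332 to 4616 FPKM and Slc34a1 of the early proximal tubule at 835 to 1835 FPKM in all 9 libraries. Some other kidney markers were at or near 0 in some libraries. Pvalb of the distal convoluted tubule was at 0 in all libraries but untreated SHR library 3, and Slc22a13 of the late proximal tubule was at 0 in treated library 3. Slc5a2, which encodes SGLT2, had 0.63, 20.77 and 8.35 FPKM in treated SHR, 42.88, 23.66 and 2.69 FPKM in untreated SHR, and 9.75, 70.25 and 43.46 FPKM in WKY. Summed over 8 collecting duct principal cell markers, levels were 2026 to 3755 FPKM in treated SHR, 1349 to 1678 FPKM in untreated SHR and 665 to 1258 FPKM in WKY. Summed over 10 late proximal markers they were 11519, 4194 and 4096 FPKM in treated SHR libraries 1, 2 and 3, 9866 to 11550 FPKM in untreated SHR and 9689 to 14103 FPKM in WKY. Kap made up most of each sum, with 9236, 3040 and 3163 FPKM in treated libraries 1, 2 and 3. Treated library 1 therefore stood apart from treated libraries 2 and 3 in this sum. It also had the highest treated level of every late proximal marker except Cyp2e1. Acsm3 differed between strains, at 547 to 1232 FPKM in the SHR groups and 34.04 to 67.54 FPKM in WKY. Summed over 10 early proximal markers, levels were 1790, 2412 and 1221 FPKM in treated libraries 1, 2 and 3. They were 2413 to 3170 FPKM in untreated SHR and 2261 to 3121 FPKM in WKY. All treated libraries thus lay below all untreated SHR libraries on the early sum, library 2 only barely, and treated SHR overlapped WKY. The principal cell sums ran with the groups without overlap, while the late proximal sums set apart only treated libraries 2 and 3. The part of these marker differences in the clock results was not tested. In tissue RNA, fewer cells of a type and less RNA per cell cannot be told apart. Adrenal, liver and fat markers summed to 20.1 to 25.1 FPKM in treated SHR, 18.5 to 23.9 FPKM in untreated SHR and 22.9 to 29.7 FPKM in WKY. Of these 8 markers, 5 were below 1 FPKM in every library, among them Alb and Cyp11b2, and all 8 were above 0 in at least 1 library. The sums were carried by the fat gene Adipoq, the liver gene Fga (2.07 to 9.17 FPKM over all libraries) and the adrenal gene Cyp21a1 (1.59 to 6.08 FPKM). Adipoq had 14.56, 15.31 and 18.92 FPKM in treated SHR, 10.81, 10.73 and 11.68 FPKM in untreated SHR, and 9.97, 12.94 and 13.23 FPKM in WKY, and so was higher in every treated library than in all others, and its part in the clock results was not tested.

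Arntl, which encodes the activator BMAL1, was the positive-limb gene that differed most between groups. It had 9.34, 7.41 and 8.81 FPKM in the 3 treated SHR libraries, 13.99, 8.98 and 9.79 FPKM in untreated SHR, and 11.97, 14.91 and 16.18 FPKM in WKY. All treated libraries lay below all WKY libraries, and untreated SHR library 1 lay within the WKY range while the other two untreated SHR libraries lay below it. Arntl fell in treated SHR relative to WKY (log2 change -0.69, SE 0.17, adjusted p = 0.0255 in limma). The test was not passed between treated and untreated SHR (-0.31, SE 0.17, adjusted p = 0.398) or between untreated SHR and WKY (-0.38, SE 0.17, adjusted p = 0.265). In order of mean level the groups ran treated SHR, untreated SHR, WKY, and neighbours in that order were not separated by the test.

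The RefSeq promoter window of Arntl (listed there as Bmal1) covers 250 bases before to 50 bases after the gene start. It held 1 match to the searched letters of the ROR/REV-ERB core, TAGGTCA or TGGGTCA, and other forms of the element were not searched for. It lies at chr1:176766078-176766377 on the plus strand of GRCr8. It is shown because this element is the known site of feedback from the Nr1d genes, and the capitals mark the match to TAGGTCA, which begins 16 bases before the gene start.
Arntl: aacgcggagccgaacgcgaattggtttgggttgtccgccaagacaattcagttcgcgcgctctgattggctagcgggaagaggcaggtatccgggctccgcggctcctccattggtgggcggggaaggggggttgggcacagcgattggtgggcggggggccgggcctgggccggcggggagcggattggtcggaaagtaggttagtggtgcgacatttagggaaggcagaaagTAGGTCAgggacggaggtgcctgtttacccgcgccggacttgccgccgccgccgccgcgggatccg
Promoter windows were available for 9 of the 10 genes (11 windows) and were searched on both strands for CACGTG (E-box), CACGTT (E-box variant), TTATGTAA and TTACGTAA (D-box), TAGGTCA and TGGGTCA (ROR/REV-ERB core) and TGACGTCA (CRE). Over all 33469 windows of this length, the E-box occurred in 6.42%, its variant in 4.83%, the D-box in 1.01%, the ROR/REV-ERB core in 6.60% and the CRE in 1.83%. CACGTG, TTACGTAA and TGACGTCA read the same on both strands. Windows of Clock, Npas2, Per1, Per3, Dbp and Nr1d2 held none of these letters, which says nothing of other parts of those genes.

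Clock, the usual partner of BMAL1, varied least in FPKM. It ranged from 7.23 to 8.94 FPKM over all 9 libraries, a 1.24-fold span. Its means were 7.69 ± 0.446 FPKM in treated SHR, 8.57 ± 0.471 FPKM in untreated SHR and 8.06 ± 0.235 FPKM in WKY (SD, n = 3 each), and no comparison passed (adjusted p = 0.406 for treated against untreated SHR). The limma change in treated SHR against WKY depended on scaling. It was -0.06 as designed (adjusted p = 0.587), -0.18 with median-of-ratios scaling (adjusted p = 0.0832) and -0.21 with quantile normalization (adjusted p = 0.0528).

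Npas2, whose product can replace CLOCK, had 3.59, 3.61 and 5.36 FPKM in treated SHR, 5.24, 3.03 and 3.08 FPKM in untreated SHR, and 2.85, 6.04 and 4.52 FPKM in WKY. The 3 groups overlapped, with WKY holding both the lowest and the highest library. Cry1, which encodes a repressor and is transcribed later in the cycle than the Per genes, had 2.81, 3.31 and 3.15 FPKM in treated SHR, 4.49, 3.31 and 3.07 FPKM in untreated SHR, and 2.31, 3.27 and 2.96 FPKM in WKY. Its groups also overlapped, with untreated SHR library 1 highest of all, the same library that had the highest Arntl and Npas2 of its group. Neither gene passed in any comparison (adjusted p between 0.352 and 0.898).

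**Figure D1:**
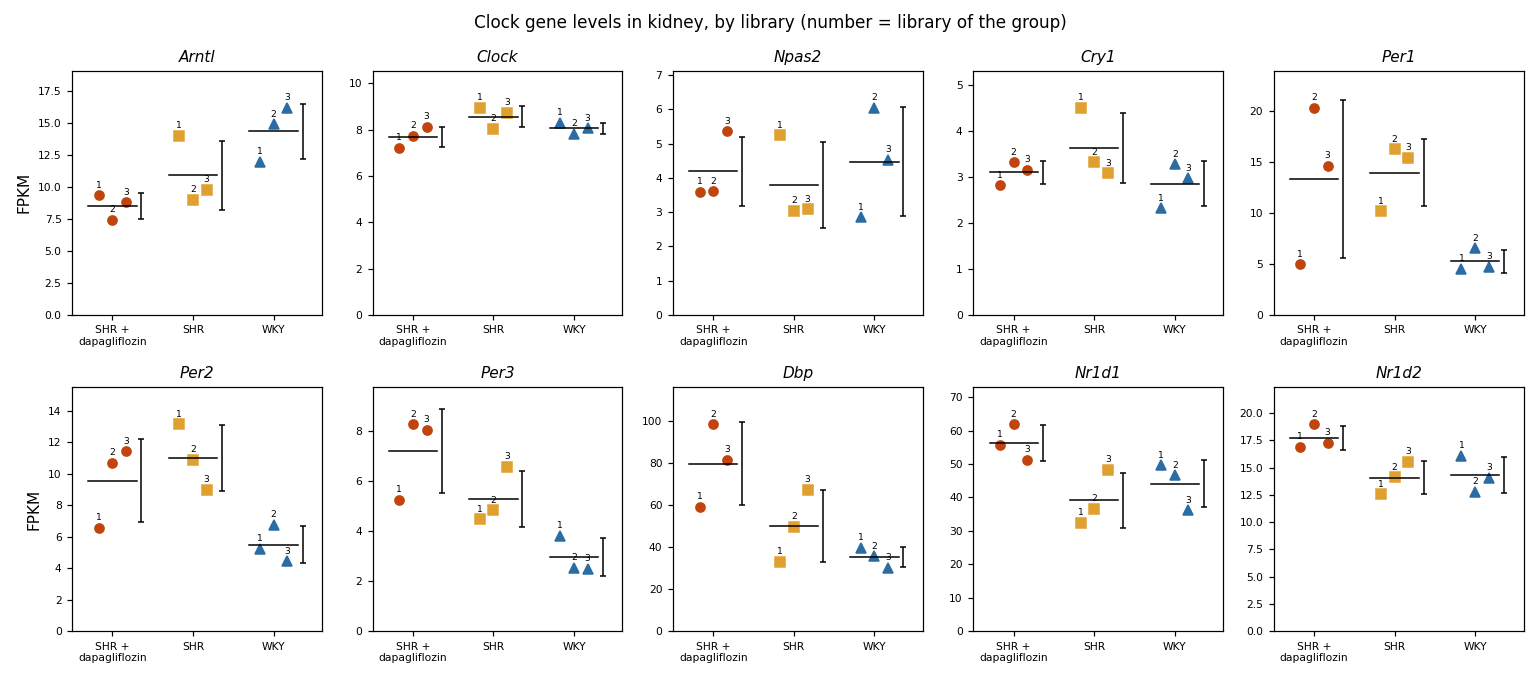
Level of each clock gene in FPKM (vertical axes, from 0) in the 3 libraries of each group; horizontal lines are means, bars are SD and small numbers are library numbers. Per1, Per2 and Per3 lie higher in all untreated SHR libraries than in all WKY libraries, Dbp is highest in treated libraries 2 and 3 at 98.48 and 81.41 FPKM, and Arntl is lowest in the treated group.

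The Per genes, which encode the repressors that close the loop, were higher in untreated SHR than in WKY without overlap. Per1 had 10.14, 16.22 and 15.4 FPKM in untreated SHR against 4.5, 6.5 and 4.71 FPKM in WKY. Every untreated SHR library exceeded every WKY library, and the ratio of means was 2.66. In limma it missed the threshold, at a log2 change of 1.25 (SE 0.41, adjusted p = 0.159). Treated SHR had 4.95, 20.25 and 14.61 FPKM of Per1, so that treated library 1 lay inside the WKY range and treated libraries 2 and 3 lay above it. The treated group had an SD of 7.74 FPKM. On the log2 scale of the model its libraries lay at -0.81, 1.03 and 0.58 from the mean of Per1 over all libraries. That log2 spread enters the error of all 3 comparisons, because the model shares 1 estimate. Without treated library 1 the same log2 change of 1.25 between untreated SHR and WKY had an SE of 0.20 and an adjusted p of 0.0150. With only those 2 groups in the fit the adjusted p was 0.0193, and over all 17 alternatives it ranged from 0.0150 to 0.378.

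Per2 had 13.13, 10.86 and 8.96 FPKM in untreated SHR against 5.24, 6.76 and 4.43 FPKM in WKY, a ratio of means of 2.01. All untreated SHR libraries were again above all WKY libraries, but the call was missed (log2 change 0.89, SE 0.22, adjusted p = 0.0717). The adjusted p was 0.0231 without treated library 1 and 0.0399 with only the 2 groups in the fit, in a range of 0.0231 to 0.251 over 17 alternatives. Treated SHR had 6.55, 10.7 and 11.42 FPKM. Treated library 1 was within the WKY range for Per2 as it was for Per1, and the treated group missed the threshold against WKY at a log2 change of 0.69 (SE 0.22, adjusted p = 0.0516).

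The promoter window of Per2, at chr9:99496944-99497243 on the minus strand of GRCr8, was the one window with letters of both an E-box variant and a D-box. It is shown because these are the elements through which the BMAL1 pair and DBP are known to act. Capitals mark TTATGTAA, which begins 192 bases before the gene start, and CACGTT, which begins 62 bases before it.
Per2: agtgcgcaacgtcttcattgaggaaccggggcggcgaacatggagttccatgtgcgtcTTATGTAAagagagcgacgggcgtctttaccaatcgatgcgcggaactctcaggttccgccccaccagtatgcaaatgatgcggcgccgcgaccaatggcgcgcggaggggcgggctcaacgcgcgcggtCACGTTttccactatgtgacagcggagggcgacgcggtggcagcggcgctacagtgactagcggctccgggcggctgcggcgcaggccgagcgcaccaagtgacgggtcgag

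Per3, the Per gene with the weakest role in the core loop and a strong rhythm in tissues, differed in a stepwise way. It had 5.24, 8.25 and 8.04 FPKM in treated SHR, 4.45, 4.81 and 6.56 FPKM in untreated SHR, and 3.81, 2.51 and 2.49 FPKM in WKY. Both SHR groups lay wholly above WKY, and treated and untreated SHR overlapped. Per3 rose in treated SHR relative to WKY (ratio of means 2.44, log2 change 1.05, SE 0.20, adjusted p = 0.0130). The log2 changes of 0.67 between untreated SHR and WKY (SE 0.20, adjusted p = 0.132) and of 0.37 between treated and untreated SHR (SE 0.20, adjusted p = 0.387) missed the threshold. Of the 10 genes it had the smallest p in any comparison, and its call against WKY held in 16 of 17 alternatives, missing only without WKY library 3 (adjusted p = 0.0568, in a range of 0.00324 to 0.0568).

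Dbp, the D-box activator and the most abundant of the 10 on average, had 59.21, 98.48 and 81.41 FPKM in treated SHR, 33.05, 49.58 and 67.13 FPKM in untreated SHR, and 39.68, 35.55 and 30.05 FPKM in WKY. Treated SHR lay wholly above WKY, while untreated SHR overlapped both. Dbp rose in treated SHR relative to WKY (ratio of means 2.27, log2 change 1.14, SE 0.26, adjusted p = 0.0198). Between treated and untreated SHR the ratio of means was 1.60 and the log2 change 0.69 (SE 0.26, adjusted p = 0.295), and between untreated SHR and WKY the log2 change was 0.45 (SE 0.26, adjusted p = 0.366), neither of which passed.

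Nr1d1, which encodes REV-ERB alpha, had 55.69, 61.93 and 51.25 FPKM in treated SHR, 32.39, 36.61 and 48.31 FPKM in untreated SHR, and 49.58, 46.68 and 36.18 FPKM in WKY. In FPKM the treated libraries lay above all others, and untreated SHR and WKY overlapped. Treated against untreated SHR had a log2 change of 0.53 (SE 0.16, adjusted p = 0.281) and treated SHR against WKY one of 0.35 (SE 0.16, adjusted p = 0.142), and neither passed. Nr1d2, which encodes REV-ERB beta, showed the same order of groups at a lower level, with 16.92, 18.99 and 17.28 FPKM in treated SHR, 12.54, 14.13 and 15.56 FPKM in untreated SHR, and 16.1, 12.79 and 14.06 FPKM in WKY. All treated libraries were again above all others, by a small margin. Its log2 change was 0.32 for treated against untreated SHR (SE 0.11, adjusted p = 0.285) and 0.29 for treated SHR against WKY (SE 0.11, adjusted p = 0.0757). With median-of-ratios scaling the limma changes of treated SHR against WKY were smaller. They were 0.22 for Nr1d1 (adjusted p = 0.370) and 0.16 for Nr1d2 (adjusted p = 0.318). The order of libraries given for both genes is that of FPKM and need not hold with that scaling.

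RefSeq lists 2 start windows for Nr1d1 on the minus strand of GRCr8, and each held 1 form of the E-box, the binding site of the BMAL1 pair. In the upstream window, chr10:84231763-84232062, capitals mark the reverse complement of CACGTT. In the downstream window, chr10:84229405-84229704, they mark CACGTG.
Nr1d1, upstream start: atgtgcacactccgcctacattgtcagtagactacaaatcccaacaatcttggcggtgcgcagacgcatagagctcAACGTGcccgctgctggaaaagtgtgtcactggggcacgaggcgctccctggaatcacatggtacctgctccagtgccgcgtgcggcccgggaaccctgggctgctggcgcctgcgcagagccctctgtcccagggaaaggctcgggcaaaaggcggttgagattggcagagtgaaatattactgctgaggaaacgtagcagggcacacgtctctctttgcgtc
Nr1d1, downstream start: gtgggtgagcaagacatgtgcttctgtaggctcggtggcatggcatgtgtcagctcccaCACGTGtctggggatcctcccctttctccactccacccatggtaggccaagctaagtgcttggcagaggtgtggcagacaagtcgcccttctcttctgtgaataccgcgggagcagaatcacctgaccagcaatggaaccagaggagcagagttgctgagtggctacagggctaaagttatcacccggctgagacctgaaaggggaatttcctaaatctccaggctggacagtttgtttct

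**Figure D2:**
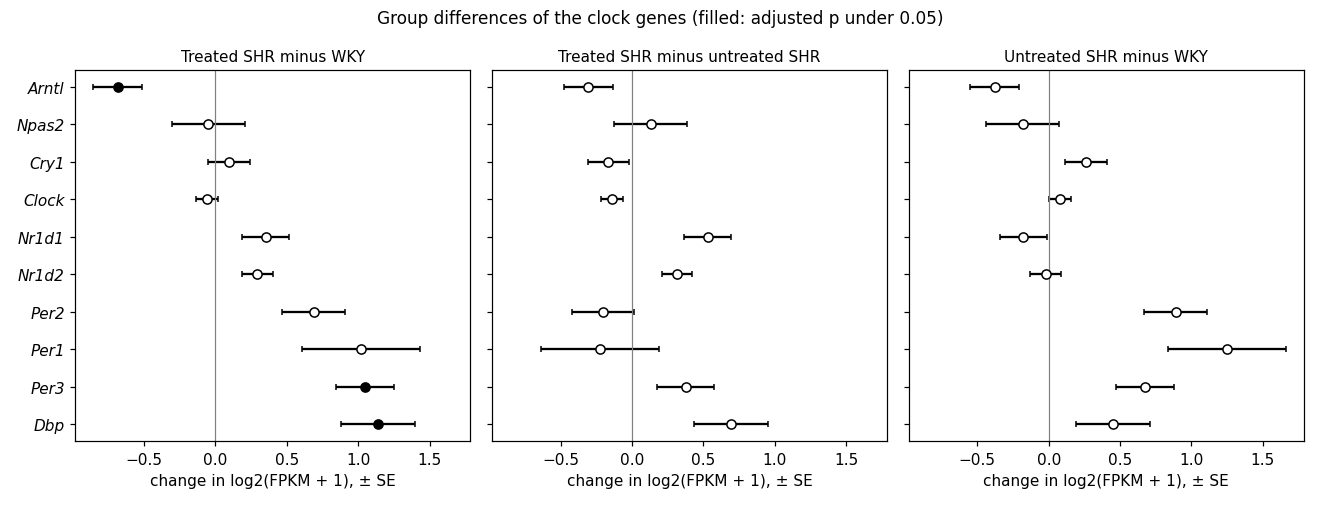
Change in log2(FPKM + 1) of each clock gene with its standard error (horizontal axis) in the 3 comparisons, from limma fitted to all 9 libraries; filled points have an adjusted p under 0.05. Arntl (-0.69), Per3 (1.05) and Dbp (1.14) pass between treated SHR and WKY, and no gene passes in the other two panels.

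Treated SHR against WKY combines strain and drug. In it 3 of the 10 genes passed, with Dbp and Per3 higher and Arntl lower in treated SHR, and 22.9% of all genes tested were called. In FPKM, groups did not overlap for 5 of the 10 (Dbp, Per3, Nr1d1, Nr1d2 higher, Arntl lower), against 38.6% of all genes. The clock genes were thus called at a rate close to that of all genes. The median log2 change was 0.32 over the 10 genes and 0.11 over all genes. With quantile normalization the median over all genes was 0.01, and Dbp stood at 1.09, Per3 at 0.91 and Arntl at -0.82, each still called. The number called was 0 without WKY library 3, 1 (Per3) without treated library 2 or 3, 2 (Arntl and Per3) without WKY library 1, and 5 without treated library 1, when Per1 and Per2 were added.

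Treated against untreated SHR asks what the drug changed within the hypertensive strain. None of the 10 genes passed in limma, and none of the 13127 genes did (0%). At an unadjusted p under 0.05 there were 3 clock genes (Dbp, Nr1d1 and Nr1d2, each higher in treated SHR) and 1997 genes in all. Groups did not overlap for 2 of the 10, Nr1d1 and Nr1d2, against 19% of all genes. The 10 genes had a median log2 change of -0.0041 (0.036 over all genes), with 5 changes above 0 and 5 below. Without treated library 1, when 830 genes were called, still none of the 10 was, and the smallest adjusted p among them over all alternatives was 0.0754, for Dbp.

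Untreated SHR against WKY asks how the strains differ. None of the 10 genes passed in limma, where 2.96% of all genes were called. Groups did not overlap for 3 of the 10, namely Per1, Per2 and Per3, against 28.4% of all genes. These 3 also had the clock genes' only unadjusted p under 0.05, a level that 2566 genes reached. The median log2 change was 0.17 over the 10 genes and 0.07 over all genes. Any pair of these 3 comparisons shares 1 group of libraries, so their values stand side by side and were not combined.

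Across single libraries, Arntl and Dbp ran opposite to each other over the 9 libraries (Pearson's r = -0.93, Spearman's rho = -0.92), also after each group's mean was removed (r = -0.82) and without treated libraries 2 and 3, the farthest from the median of Dbp (r = -0.91 over 7 libraries). Within treated SHR, library 2 had the lowest Arntl and the highest Dbp, and library 1 the highest Arntl and the lowest Dbp. Within WKY, library 1 had the lowest Arntl and the highest Dbp, and library 3 the reverse. Within untreated SHR, library 1 had the highest Arntl and the lowest Dbp. The ratio of Dbp to Arntl was 6.34, 13.3 and 9.24 in treated SHR, 2.36, 5.52 and 6.86 in untreated SHR, and 3.31, 2.38 and 1.86 in WKY. Untreated SHR library 1 thus stood among the WKY libraries on this ratio, and untreated library 3 slightly above treated library 1. These correlations were computed over libraries that share their group and scaling, and are descriptions. The main axis of variation over all tested genes (first principal component) held 53.1% of the variance and also ran with the groups. Libraries lay on it at -42.3 to -16.5 in WKY and -1.76 to 10.1 in untreated SHR. Treated libraries 1, 2 and 3 lay at 4.71, 31.6 and 42.5, so library 1 was among untreated SHR. The part of this axis in the clock gene correlations was not tested.

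**Figure D3:**
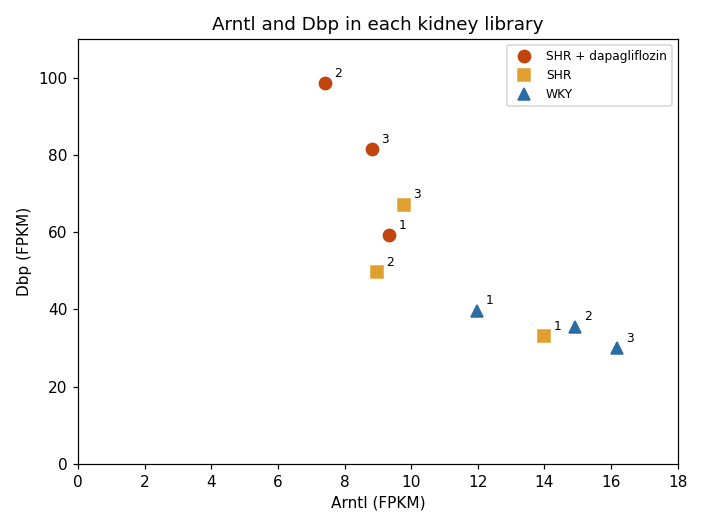
Arntl (horizontal axis) against Dbp (vertical axis), both in FPKM, with 1 point per library and its number. WKY libraries and untreated SHR library 1 lie at 11.97 to 16.18 FPKM of Arntl with Dbp at or below 39.68 FPKM, and the other libraries lie at lower Arntl and higher Dbp.

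Other pairs varied in closeness. Per3 followed Dbp (r = 0.93), as did Nr1d2 (r = 0.85) and Nr1d1 (r = 0.75), and Nr1d1 followed Nr1d2 (r = 0.84). Per1 and Per2 followed each other (r = 0.84). After group means were removed, Per3, Nr1d2 and Nr1d1 correlated with Dbp at 0.85, 0.77 and 0.79. Nr1d1 with Nr1d2 then stood at 0.66 and Per1 with Per2 at 0.61. Per2 had weaker correlations with Dbp (r = 0.48) and Nr1d1 (r = -0.073), as Clock had with Arntl (r = 0.31). Npas2 and Cry1 correlated at 0.53 over all libraries and at 0.86 after group means were removed. The mean log2 level of Arntl, Clock, Npas2 and Cry1 minus that of the other 6 genes was -1.37, -2.06 and -1.71 in treated SHR, -0.86, -1.52 and -1.65 in untreated SHR, and -1.10, -0.69 and -0.54 in WKY. Treated and WKY libraries did not overlap on this difference, and untreated SHR spanned the gap.

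**Figure D4:**
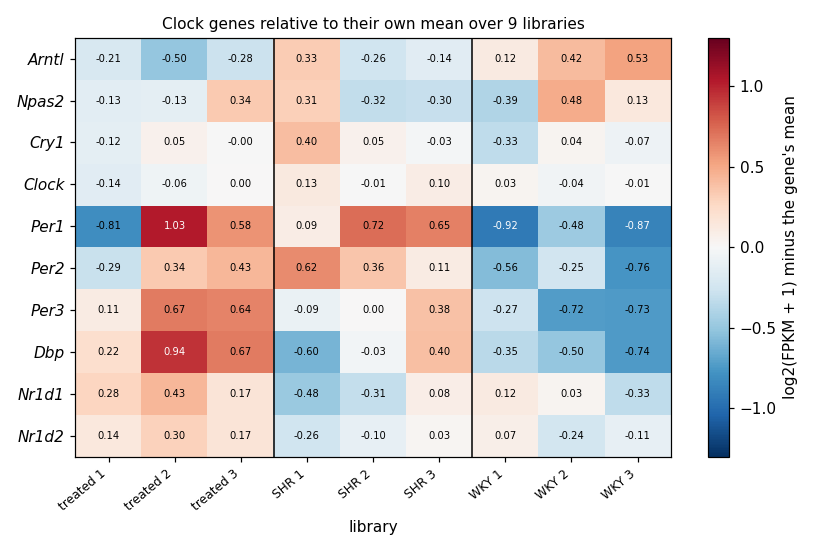
Each clock gene's log2(FPKM + 1) minus its mean over the 9 libraries, with libraries in columns and genes in rows; red is above and blue below the gene's mean. Treated library 1 is low in Per1 and Per2 (-0.81 and -0.29) but above the mean in Dbp and Nr1d1, while untreated SHR library 1 is high in Per2 (0.62) and low in Dbp (-0.60).

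Treated library 1 and untreated SHR library 1 each had the highest Arntl and the lowest Dbp, Per1 and Per3 of their group. They parted in Per2, Cry1 and Npas2, of which treated library 1 had the lowest and untreated SHR library 1 the highest level of its group. Treated library 1 had Per1 and Per2 at WKY levels with Dbp, Nr1d1 and Nr1d2 above all WKY libraries. Untreated SHR library 1 had the highest Per2 of the series with Dbp at a WKY level and the lowest Nr1d1 and Nr1d2 of the series. Treated library 1 was also the treated library whose summed late proximal markers, mostly Kap, were at the untreated level.

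Among 8995 other genes with a mean of at least 5 FPKM, those most like Dbp over the 9 libraries were Ccnq (Pearson's r = 0.97, Spearman's rho = 0.93), Stx6 (r = 0.97, rho = 0.93), Rptor (r = 0.97, rho = 0.92), Atp6v0a2 (r = 0.96, rho = 0.95) and Rcor1 (r = 0.96, rho = 0.93). Their span was much smaller than that of Dbp. Stx6, for example, had 20.05 ± 1.63 FPKM in treated SHR, 17.5 ± 1.06 FPKM in untreated SHR and 16.2 ± 0.344 FPKM in WKY. The genes most like Arntl were Ccz1b (r = 0.96, rho = 0.95), Icam1 (r = 0.94, rho = 0.83), Mapkapk5 (r = 0.93, rho = 0.98), Jtb (r = 0.92, rho = 0.88) and Paip1 (r = 0.92, rho = 0.88).

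Of 26 further genes of the clock machinery (kinases, ubiquitin ligases, nuclear receptors, PAR bZIP factors and cofactors), 23 were tested. The other 3 were near or below the filter, with Ciart at 0.33 to 0.96 FPKM, Timeless at 0.54 to 1.19 FPKM and Rorb at 0.02 to 0.07 FPKM. In treated SHR against WKY 4 rose, 1 fell and 18 did not pass, a share close to the 22.9% of all genes called. Csnk1d, a casein kinase that phosphorylates PER, had 39.4 ± 2.91 FPKM in treated SHR against 30.8 ± 1.29 FPKM in WKY (log2 change 0.34, SE 0.08, adjusted p = 0.0191). The casein kinase subunit gene Csnk2a1, the ubiquitin ligase gene Btrc and the chromatin gene Wdr5 also rose, by log2 changes of 0.29, 0.39 and 0.39, and these 3 calls were lost with median-of-ratios scaling. Rora, an activator that competes with the REV-ERBs for their element, fell to 1.83 ± 0.179 FPKM in treated SHR, against 2.84 ± 0.521 FPKM in WKY (adjusted p = 0.0371). Each of the 5 lost its call without WKY library 1, WKY library 3, treated library 2 or treated library 3. None of the 23 passed in treated against untreated SHR or in untreated SHR against WKY. Bhlhe41 (DEC2), a repressor at E-boxes, had 1.43 ± 0.177 FPKM in treated SHR, 1.42 ± 0.157 FPKM in untreated SHR and 2.35 ± 0.594 FPKM in WKY. Every library of both SHR groups lay below every WKY library, and neither comparison with WKY passed (adjusted p = 0.0608 for treated SHR and 0.159 for untreated SHR). Hlf, a relative of Dbp, had 8.98 ± 2.79 FPKM in treated SHR, 11.1 ± 0.705 FPKM in untreated SHR and 7.64 ± 1.27 FPKM in WKY. Its highest treated library was library 1, the one lowest in Dbp.

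Of 18 genes known as clock outputs in many tissues, all tested, Usp2 and Coq10b rose in untreated SHR relative to WKY and 16 did not pass, where 2.96% of all genes were called. Usp2, a rhythmic deubiquitinase gene, had 17.41, 27.17 and 28.53 FPKM in treated SHR, 17.37, 23.95 and 22.83 FPKM in untreated SHR, and 11.07, 11.8 and 9.69 FPKM in WKY. Both SHR groups lay wholly above WKY (untreated SHR against WKY, log2 change 0.91, SE 0.19, adjusted p = 0.0412; treated SHR against WKY, 1.07, SE 0.19, adjusted p = 0.0102). The call against WKY held in all 17 alternatives for treated SHR and in 9 of 17 for untreated SHR, where it was lost with no filter on low values and without any 1 of the WKY or untreated SHR libraries or treated library 2. Coq10b, a coenzyme Q binding protein gene, had 33.3 ± 2.48 FPKM in untreated SHR against 25.7 ± 0.849 FPKM in WKY (adjusted p = 0.0346). That call held in 5 of 17 alternatives and was lost, among others, with either other scaling and without any 1 of the WKY or untreated SHR libraries. In treated SHR against WKY, where 22.9% of all genes were called, Usp2 and Klf10 rose and Klf15 fell, both Klf genes losing their calls without WKY library 1 or 3, treated library 2 or 3, or untreated SHR library 1, and none of the 18 passed in treated against untreated SHR.

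Of 17 genes listed for glucocorticoid action, targets and receptors among others, 14 were tested, with Per1 among them. All 14 had positive log2 changes in untreated SHR against WKY. The median was 0.60 over the list and 0.07 over all genes, 2 genes passed and 12 did not, where 2.96% of all genes were called. Fkbp5, a glucocorticoid-induced chaperone of the receptor, had 14.78, 15.53 and 16.7 FPKM in treated SHR, 15.74, 17.86 and 15.94 FPKM in untreated SHR, and 6.39, 9.93 and 7.09 FPKM in WKY. The SHR groups lay together and wholly above WKY, and Fkbp5 rose in untreated SHR (log2 change 1.01, SE 0.14, adjusted p = 0.00600) and in treated SHR (log2 change 0.94, SE 0.14, adjusted p = 0.00576) relative to WKY in all 17 alternatives. Ddit4, a stress-induced inhibitor of mTOR signalling, rose to 19.6 ± 5.17 FPKM in untreated SHR, against 7.66 ± 1.34 FPKM in WKY (adjusted p = 0.00910), a call lost without WKY library 3 or untreated SHR library 1. Tsc22d3 (GILZ), induced by both glucocorticoids and the clock, had 13.13, 22.36 and 22.93 FPKM in treated SHR, 24.58, 29.17 and 24.17 FPKM in untreated SHR, and 13.55, 16.6 and 14.66 FPKM in WKY. As for Per1 and Per2, treated library 1 was at or below the WKY range for Tsc22d3. In treated SHR against WKY 5 of the 14 rose (Fkbp5, Ddit4, Hsd11b2, Nr3c2 and Sult1a1) and 9 did not pass, at a median of 0.76 against 0.11 over all genes, of which 22.9% were called. Hsd11b2 is also one of the principal cell markers summed above, which were higher in treated SHR than in WKY. The part of that marker difference in these values was not tested. In treated against untreated SHR 6 of the 14 changes were positive and 8 negative, and none passed.

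**Figure D5:**
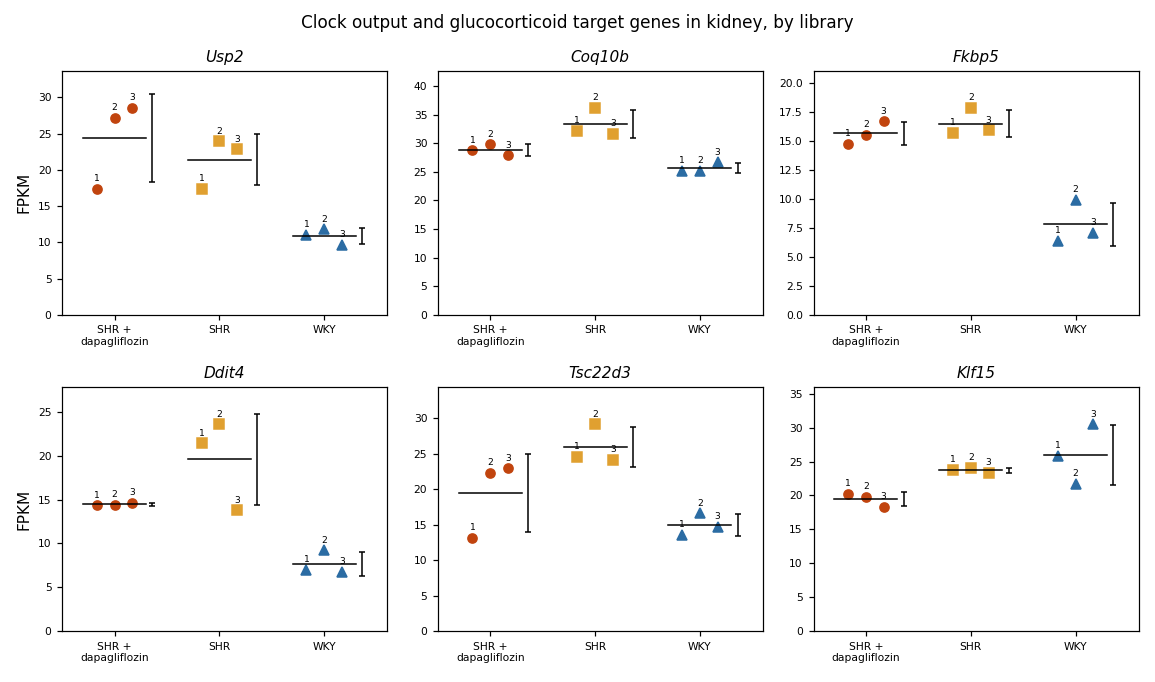
Levels in FPKM (vertical axes, from 0) of 6 clock output or glucocorticoid target genes by library; lines are means, bars are SD and small numbers are library numbers. Fkbp5 and Usp2 are higher in every library of both SHR groups than in every WKY library, and treated library 1 is the lowest treated library for Usp2, Fkbp5 and Tsc22d3.

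Immediate early genes, which share with Per1 a rapid response to signals, were also listed. Of 20, 16 were tested. In untreated SHR against WKY 15 of these had positive changes (median 0.68, against 0.07 over all genes). In treated against untreated SHR 14 had negative changes (median -0.30, against 0.04 over all genes). Untreated SHR enters these 2 comparisons with opposite sign, so the 2 counts are not independent. None passed in limma in either of them, where 2.96% and 0% of all genes were called. In treated SHR against WKY 13 changes were positive and 3 negative (median 0.38, against 0.11 over all genes). In untreated SHR against WKY the groups did not overlap for 6 of the 16, against 28.4% of all genes, and in treated against untreated SHR for 2 of the 16, against 19% of all genes. Ier3 and Klf2 rose in treated SHR relative to WKY, where 22.9% of all genes were called, Ier3 to 93.97 ± 41.0 FPKM against 32.0 ± 4.76 FPKM in WKY. Ier3 lost its call without WKY library 1 (adjusted p = 0.0516), and Klf2 held its call in 4 of 17 alternatives.

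Of 19 genes reported as clock-dependent in the kidney, mostly salt and water transport genes, 17 were tested. In treated SHR against WKY 8 rose, 1 fell and 8 did not pass, at a median log2 change of 0.86 against 0.11 over all genes, of which 22.9% were called. Scnn1a, the alpha subunit of the epithelial sodium channel and a PER1-dependent gene in mouse kidney, had 111.56, 155.54 and 241.36 FPKM in treated SHR, 95.69, 89.24 and 91.77 FPKM in untreated SHR, and 40.35, 80.04 and 46.35 FPKM in WKY. The 3 groups did not overlap, with every treated library above every untreated SHR library and these above every WKY library. Scnn1a rose in treated SHR relative to WKY (log2 change 1.58, SE 0.30, adjusted p = 0.0123), a call lost without WKY library 3. Principal cell markers, of which Aqp2, Aqp4 and Avpr2 are also in this list, differed in the same direction, as the summed levels above show. Distal convoluted tubule markers, of which Slc12a3 is also listed, summed to 1081 to 2159 FPKM in treated SHR and 564 to 1071 FPKM in WKY. Untreated SHR, at 782 to 1079 FPKM, overlapped WKY. Intercalated cell markers summed to 1259 to 2174 FPKM in treated SHR, 901 to 1353 FPKM in untreated SHR and 562 to 782 FPKM in WKY. Untreated SHR thus overlapped treated SHR and lay above WKY on this sum. The part of these marker differences in the listed genes' values was not tested. In untreated SHR against WKY, Slc9a3 and Avpr1a rose and 15 did not pass, where 2.96% of all genes were called, and in treated against untreated SHR none passed. The calls in untreated SHR held in 12 of 17 alternatives for Slc9a3 and in 6 of 17 for Avpr1a. In treated SHR against WKY, the calls of Aqp2, Avpr1a, Avpr2 and Slc6a6 held in all 17. Those of Aqp4, Wnk1 and Wnk4 held in 12 of 17 and that of Slc12a3 in 8 of 17.

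Of 13 genes for related PAS proteins and other E-box or D-box binding factors, 12 were tested and Arntl2, the paralog of Arntl, was at 0 to 0.13 FPKM. Cebpd and Hif1a rose in treated SHR relative to WKY, where 22.9% of all genes were called, Cebpd to 16.3 ± 8.71 FPKM against 5.35 ± 1.35 FPKM in WKY and Hif1a to 31.5 ± 3.76 FPKM against 24.9 ± 0.602 FPKM in WKY. Each held its call in 7 of 17 alternatives and lost it without WKY library 1 or 3 or treated library 2 or 3. The other 10 did not pass there, and none of the 12 passed in the other two comparisons.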

How the data were processed

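Kidney RNA was prepared with Trizol and read on a BGISEQ-500 in single reads of 50 bases, per the labels' protocols. Per the submitters' processing notes, HISAT2 2.0.4, Bowtie2 2.2.5 and the build Rnor_6.0 were used, with no roles stated. The program that computed expression is not given in the sources used here. The deposited values are FPKM, per the file headers, rounded to 2 decimals, and depth is not stated. FPKM scales each library to its total, so a change in abundant transcripts shifts all others.

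Values were analysed as log2(FPKM + 1), which understates changes of low genes. Genes that reached 1 FPKM in 3 or more of the 9 libraries were tested in limma 3.58.1 (R 4.3.3). The model held 1 mean per group over the 9 libraries (6 residual degrees of freedom) and an intensity trend, and p-values (two-sided) were adjusted by Benjamini-Hochberg over 13127 genes. Called means an adjusted p under 0.05. The fit was tested on simulated data. Means and SD are of FPKM. Alternatives changed the pseudocount (0.1), filter (none, or FPKM of 5), scaling, samples, trend, replicate block and left out each library in turn. For listed genes other than the 10, running them was chosen after seeing the data.

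Clock genes and lists were chosen with earlier results of these data known. Named genes were the 10 in every comparison, listed genes that were called or among the 3 smallest p of a list (some by count only), and the 5 genes with the highest Pearson's r to Dbp and to Arntl. The rule's comparison of protein sequences was not made here. All 10 gene IDs matched RefSeq, whose GRCr8 promoter windows were used for sequences only. Replicate numbers were not treated as pairs, since nothing in the labels links them. Python 3.11.15, pandas 2.3.3, scipy 1.17.1 and matplotlib 3.10.9 were used.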

Additional observations from a re-analysis of the deposited data

How the results depend on the processing

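Each clock gene in each comparison was refitted under up to 17 alternatives, 507 values in all, of which 477 kept their direction and their side of the threshold, 9 passed anew, 8 lost a call and 13 changed sign. The number of clock genes called in untreated SHR against WKY was 0 as designed, 2 with only the 2 groups compared, and 0 to 2 with 1 library left out. In treated SHR against WKY it was 3 as designed and 0 to 5 with 1 library left out. In treated against untreated SHR it was 0 under all alternatives run. Over all genes, calls in those 3 comparisons were 388, 3010 and 0 as designed and 167 to 626, 593 to 4791 and 0 to 830 under the alternatives, the last highest without treated library 1. Those with 1 library left out rest on fewer samples, and otherwise the cause was not tested. All sign changes were of uncalled genes. In untreated SHR against WKY, Clock was -0.023 with quantile normalization, and with 1 library left out Npas2 ranged from -0.41 to 0.022 and Nr1d2 from -0.095 to 0.060. In treated against untreated SHR, with 1 library left out, Npas2 ranged from -0.025 to 0.34, Per1 from -0.60 to 0.31 and Per2 from -0.34 to 0.023. In treated SHR against WKY, Cry1 was -0.0077 with median-of-ratios scaling and -0.027 with quantile normalization, and with 1 library left out Cry1 ranged from -0.0097 to 0.17 and Npas2 from -0.28 to 0.15. With the replicate block 0, 0 and 4 clock genes were called in untreated SHR against WKY, treated against untreated SHR and treated SHR against WKY, Per1 being the one added (adjusted p = 0.0434). Same-numbered libraries of different groups correlated at -0.33 to 0.46 in their deviations from group means, and differently numbered ones at -0.53 to 0.33. These ranges overlap, so they cannot decide whether the numbers pair libraries. Depth is unknown, so no counting error can be given for low values, and Cry1 was not tested with the filter at FPKM 5. Of the listed genes called, 1 of 6 in untreated SHR against WKY and 7 of 26 in treated SHR against WKY held in every fit that left out 1 library.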
